A study of Homo sapiens with 4 samples.

Results

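Oxidative phosphorylation is carried out by 5 enzyme complexes of the inner mitochondrial membrane, and the mRNAs of their nuclear-encoded subunits were followed here in SW620 cells after hydrogen peroxide. Members were taken by gene symbol alone: every row of the deposited table with a name of an NDUFA, NDUFB, NDUFC, NDUFS or NDUFV subunit, SDHA to SDHD, a UQCR gene, COX4 to COX8, an ATP5 gene, NDUFAB1, CYC1 or CYCS. That gave 92 of 19389 rows, all marked protein-coding. By textbook assignment 37 belong to complex I, 4 to complex II, 9 to complex III, 17 to complex IV and 17 to complex V. The other 8 rows are relatives in no complex, among them the electron carrier gene CYCS, the ATPase inhibitor gene ATP5IF1 and 2 read-through genes. The 2 H2O2-treated libraries came from SW620, a widely used line grown from a human colorectal cancer, exposed for 2 days to 150 µM H2O2 by the sample labels, while the series' design text gives that figure in mM. The 2 control libraries came from SW620 cells called control, with no vehicle named. The series calls the exposed cells senescent, meaning lastingly arrested, and the comparison asks which mRNAs differ in them. No label says that the libraries of a group were separate cultures, so every p below measures the spread between these libraries, which may be technical.

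Complexes I and II pass electrons from NADH and succinate to ubiquinone, complex III passes them on to cytochrome c, and complex IV hands them to oxygen. Complexes I, III and IV pump protons, and complex V, the ATP synthase, lets them flow back to make ATP. Complex II is encoded wholly in the nucleus, whereas the catalytic centre of complex IV and parts of the other complexes are encoded by mitochondrial DNA. Those mitochondrial mRNAs are not analysed here. Many nuclear genes of the pathway have promoters bound by NRF1, by ETS factors such as GABPA, and by YY1.

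Some members share so much sequence that it bears on how reads could be assigned. UQCRH, the hinge protein of complex III, and UQCRHL, its copy elsewhere on chromosome 1, differ at 4 of 276 coding bases (98.6% identity), which are in capitals in the GENCODE release 29 coding sequences (GRCh38, each 5′ to 3′):
UQCRH: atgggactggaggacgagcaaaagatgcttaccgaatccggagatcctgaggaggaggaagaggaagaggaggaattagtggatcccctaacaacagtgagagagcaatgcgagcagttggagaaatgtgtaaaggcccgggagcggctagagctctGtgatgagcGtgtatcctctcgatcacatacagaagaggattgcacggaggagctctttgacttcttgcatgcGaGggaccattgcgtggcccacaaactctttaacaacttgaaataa
UQCRHL: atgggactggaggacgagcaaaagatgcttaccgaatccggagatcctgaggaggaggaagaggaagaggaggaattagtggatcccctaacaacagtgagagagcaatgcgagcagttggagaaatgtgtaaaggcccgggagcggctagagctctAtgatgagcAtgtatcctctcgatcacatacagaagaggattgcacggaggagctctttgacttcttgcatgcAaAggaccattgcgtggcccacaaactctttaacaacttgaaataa
With so few differences, the split of reads between both rows is uncertain, and so are their FPKM. The proton-carrying c ring of complex V is made from 3 genes that encode the same mature subunit. Their last 228 coding bases are given with the 53 positions not shared by all 3 in capitals, of which 47 lie at the third position of a codon:
ATP5MC1: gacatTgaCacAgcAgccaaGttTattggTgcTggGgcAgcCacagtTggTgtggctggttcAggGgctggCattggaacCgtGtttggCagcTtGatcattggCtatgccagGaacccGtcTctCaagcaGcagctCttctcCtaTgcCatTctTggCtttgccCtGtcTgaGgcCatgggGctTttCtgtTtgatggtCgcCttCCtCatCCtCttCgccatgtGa
ATP5MC2: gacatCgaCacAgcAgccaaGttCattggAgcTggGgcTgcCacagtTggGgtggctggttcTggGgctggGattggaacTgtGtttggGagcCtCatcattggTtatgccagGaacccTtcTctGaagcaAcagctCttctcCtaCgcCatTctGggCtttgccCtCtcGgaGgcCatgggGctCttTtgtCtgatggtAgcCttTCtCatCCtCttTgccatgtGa
ATP5MC3: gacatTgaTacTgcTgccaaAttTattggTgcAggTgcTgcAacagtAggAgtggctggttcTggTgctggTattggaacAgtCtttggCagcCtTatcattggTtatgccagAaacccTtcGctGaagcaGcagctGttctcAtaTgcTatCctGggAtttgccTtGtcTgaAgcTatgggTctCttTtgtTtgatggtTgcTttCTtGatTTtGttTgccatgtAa
ATP5MC1 and ATP5MC2 were 89% identical in that stretch, and each was 81.1% identical to ATP5MC3, so these rows share less sequence than the UQCRH pair.

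Promoters were set beside the members because 82 of the 86 tested members had a negative log2 change, though only 53 had both treated libraries below both controls. Over all genes these shares were 54.3% and 24.0%. Of 424 other genes with short, abundant mRNAs, a class described below, 363 had a negative log2 change and 52.6% lay below both controls. RefSeq promoters (GRCh38.p14, 300 bases, the first listed start of each gene) were matched by gene ID for 74 of the 92 members, 70 of them tested. The core of the NRF1 motif was searched as GCATGCGC and, with 1 base open, as GCANGCGC, which takes in the first form. The ETS motif was searched as CCGGAAG and the YY1 motif as AAGATGGC, whose start can overlap the end of the ETS motif. Every motif was searched on both strands. GCATGCGC stood in 14 of the 70 promoters of tested members, against 5.61% of those of 9140 other tested genes and 3.27% of all 27305 promoters in the table. With the open base it stood in 35.7%, against 21.6% and 12.2%. CCGGAAG stood in 28.6%, against 20.8% and 10.7%, and AAGATGGC in 15.7%, against 5.79% and 3.03%. The median log2 change was -0.31 in the 14 members with GCATGCGC and -0.42 in the 56 without it, and -0.40 with and -0.42 without CCGGAAG. A match is a description of letters, not a binding site, and the shares were not tested. One promoter per complex is shown, that of the gene of smallest limma p whose 250 bases before the start held a GCANGCGC or CCGGAAG match, with the matches in capitals (each 5′ to 3′ on the gene's strand):
NDUFB7, chr19:14572067-14572316, minus strand: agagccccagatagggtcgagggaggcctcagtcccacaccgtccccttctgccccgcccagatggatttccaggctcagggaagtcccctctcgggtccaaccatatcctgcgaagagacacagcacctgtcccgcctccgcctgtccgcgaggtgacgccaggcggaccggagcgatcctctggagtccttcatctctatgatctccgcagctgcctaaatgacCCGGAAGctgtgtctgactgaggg
SDHA, chr5:218070-218319, plus strand: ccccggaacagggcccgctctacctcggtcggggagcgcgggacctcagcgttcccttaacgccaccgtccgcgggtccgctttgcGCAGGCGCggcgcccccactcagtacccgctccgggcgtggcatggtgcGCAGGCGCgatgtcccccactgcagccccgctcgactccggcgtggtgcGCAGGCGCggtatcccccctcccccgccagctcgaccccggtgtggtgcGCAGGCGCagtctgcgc
UQCRQ, chr5:132866392-132866641, plus strand: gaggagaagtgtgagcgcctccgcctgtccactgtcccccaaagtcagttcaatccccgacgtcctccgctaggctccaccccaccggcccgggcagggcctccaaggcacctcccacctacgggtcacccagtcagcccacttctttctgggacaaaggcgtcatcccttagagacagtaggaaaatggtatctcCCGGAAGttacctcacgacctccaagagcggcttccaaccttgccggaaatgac
COX8A, chr11:63974370-63974619, plus strand: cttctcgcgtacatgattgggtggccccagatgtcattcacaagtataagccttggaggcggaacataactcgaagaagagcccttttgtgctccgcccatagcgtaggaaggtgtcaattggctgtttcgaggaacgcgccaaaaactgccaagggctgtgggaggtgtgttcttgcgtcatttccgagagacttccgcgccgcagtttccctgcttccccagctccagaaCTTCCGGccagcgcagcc
ATP5MC2, chr12:53676084-53676333, minus strand: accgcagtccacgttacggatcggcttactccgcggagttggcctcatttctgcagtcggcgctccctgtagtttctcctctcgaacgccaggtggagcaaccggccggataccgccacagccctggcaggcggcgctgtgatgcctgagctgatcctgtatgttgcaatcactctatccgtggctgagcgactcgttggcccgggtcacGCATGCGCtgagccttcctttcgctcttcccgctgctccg
SDHA held 4 GCANGCGC matches and ATP5MC2 1, while NDUFB7, UQCRQ and COX8A each had 1 CCGGAAG match, on the opposite strand in COX8A. All 5 genes were lower in both H2O2-treated libraries than in both controls, with the values given below. Being picked by smallest p made this all but fixed in advance, so it says nothing about the matches. Among all genes 24.0% lay so, and 52.6% of other short, abundant mRNAs.

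FPKM are per kilobase of transcript, so levels of different genes may be compared. Summed FPKM over the whole table ranged from 574782 to 617668 in the H2O2-treated libraries and from 660860 to 695837 in the controls, and read depth is unknown. Epithelial identity was marked by KRT8 at 2669 and 2888 FPKM in treated cells and 3616 and 3281 FPKM in controls, and by EPCAM, KRT18 and VIL1. Of 10 colon epithelial markers 6 were tested, and at an unadjusted limma p under 0.05 VIL1 was lower and CDH1 higher (22.98 and 16.6 FPKM in treated cells, against 14.8 and 9.93 FPKM in controls), while the colon markers CDX1, KRT20, LGALS4 and CDH17 were under 1 FPKM throughout. Summed levels of 7 leukocyte markers were 12.5 and 36.7 FPKM in treated libraries, against 5.18 and 6.68 FPKM in controls. Of these, 2 could be tested and 1 was higher at an unadjusted limma p under 0.05, the lysosomal and macrophage marker CD68, at 7.65 and 17.7 FPKM in treated libraries and 1.92 and 1.83 FPKM in controls. The sums were 6.41 and 12.96 FPKM against 5.52 and 10.3 FPKM for 7 fibroblast markers (4 tested, 1 higher, THY1), and 13.7 and 15.7 FPKM against 8.94 and 6.46 FPKM for 6 endothelial markers (2 tested, both higher, TIE1 and EGFL7). CD3E, PTPRC, COL1A2, COL3A1, KDR and CDH5 were under 0.1 FPKM in every library. Other markers on the same lists were detected, with COL1A1 at 1.23 and 3.06 FPKM in treated libraries and 1.72 and 3.16 FPKM in controls, LUM at 2.00 and 6.94 FPKM against 2.64 and 5.96 FPKM, and LYZ at 4.41 and 18.4 FPKM against 2.95 and 4.43 FPKM, and the part of such cells in the results was not tested. In bulk RNA, fewer cells with a transcript and less of it per cell cannot be told apart.

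Subunit mRNAs stood at lower levels in H2O2-treated cells in nearly every row, and no single gene passed the test. A gene was tested if 2 or more libraries held it at 1 FPKM or above, which kept 86 of the 92 members and 11318 rows in all. No tested member was below 1 FPKM throughout either group, so none entered through 1 group only. Limma, on log2(FPKM + 1), called 0 members and 0 genes of the table at a Benjamini-Hochberg adjusted p under 0.05 (0% of all genes, in either direction). The smallest adjusted p of a member was 0.311. On simulated data the same procedure recovered 13.2% of 2-fold and 90.8% of 4-fold changes. The largest log2 change of a member, -0.77, was under 2-fold, so 0 calls cannot show that a member did not change. At an unadjusted limma p under 0.05, 11 members were lower and 0 higher, 12.8% of those tested, beside 4.91% lower and 6.22% higher among all genes. The log2 change was negative in 82 of 86 members, where 54.3% of all genes had a negative one. It was also negative in 363 of 424 other genes with short, abundant mRNAs, a class described below. Of the 86 tested members only 54 are of that kind, so the class is like part of them. Both treated libraries lay below both controls in 53 members (61.6%), beside 24.0% of all genes, and above both in 1, beside 19.3%. The members' median log2 change was -0.40, against -0.03 over all tested genes.

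**Figure D1:**
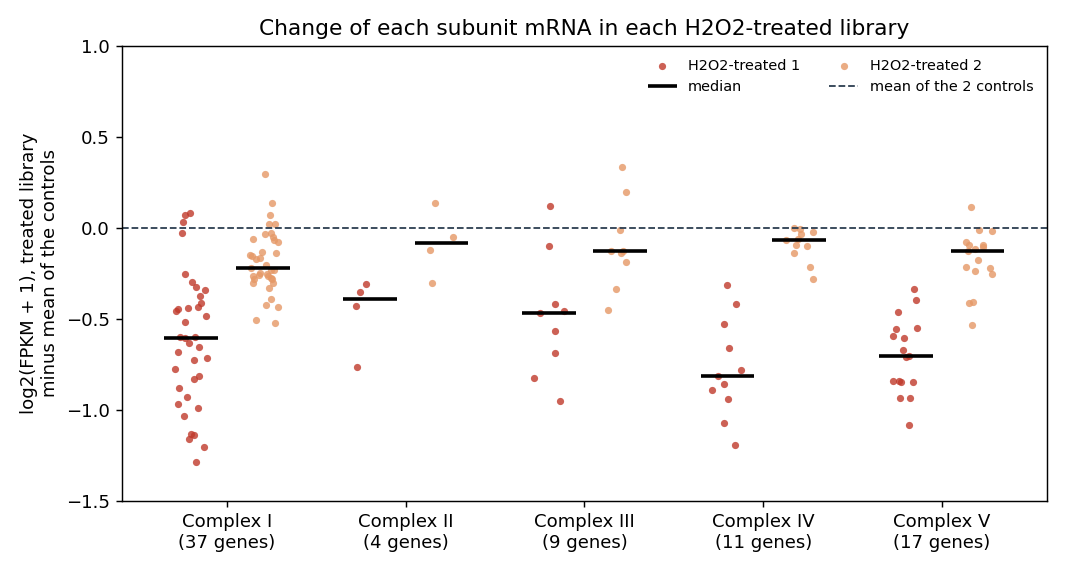
Difference in log2(FPKM + 1) between each H2O2-treated library and the mean of the 2 controls (y axis) for each tested subunit gene, by complex (x axis), with 1 point per gene, treated library 1 left of treated library 2, and black bars at the medians. In complex IV the median is -0.82 in treated library 1 and -0.07 in treated library 2, and in every complex library 1 lies lower.

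The size of the difference was set mostly by treated library 1. Over the 86 tested members the median difference from the control mean was -0.61 in treated library 1 and -0.14 in treated library 2, where all genes had medians of -0.01 and -0.04. Treated library 1 was the lowest of the 4 libraries for 75 members, beside 3465 of all 11318 tested genes. Among the 424 other short, abundant mRNAs, described below, it was the lowest for 309. Treated library 1 lay below treated library 2 for 78 members, a count not taken over all genes. Members summed to 11630.4 and 16654 FPKM in the treated libraries, against 18168 and 19438 FPKM in the controls, which is 2.02% and 2.70% of each treated library's total and 2.61% and 2.94% of each control's. Without treated library 1 the median was -0.14, with 5 members lower at an unadjusted limma p under 0.05, a smaller share than the 8.33% of all genes. Without treated library 2 it was -0.61, with 61 members lower, beside 11.4% of all genes. The 8 members not lower in library 1 than in library 2 were the cytochrome genes CYC1 and CYCS, NDUFS1, NDUFV1, ATP5F1D, COX7A2L, NDUFA4L2 and ATP5MF-PTCD1, named after their values were seen. In 7 members treated library 2 stood above both controls, namely NDUFA10, NDUFB5, NDUFV3, SDHD, UQCRB, UQCRC2 and UQCRHL, also named after the values were seen. That was so in 3879 of all 11318 tested genes and in 86 of the 424 other short, abundant mRNAs. The lowest share of the control mean inside a complex was that of NDUFB3, an accessory complex I subunit, at 40.2% in treated library 1, where treated library 2 had 80.4 FPKM and the controls 73.0 and 85.9 FPKM. Levels kept their order: Spearman's rho of FPKM between libraries over the 86 genes was 0.948 to 0.983.

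**Figure D2:**
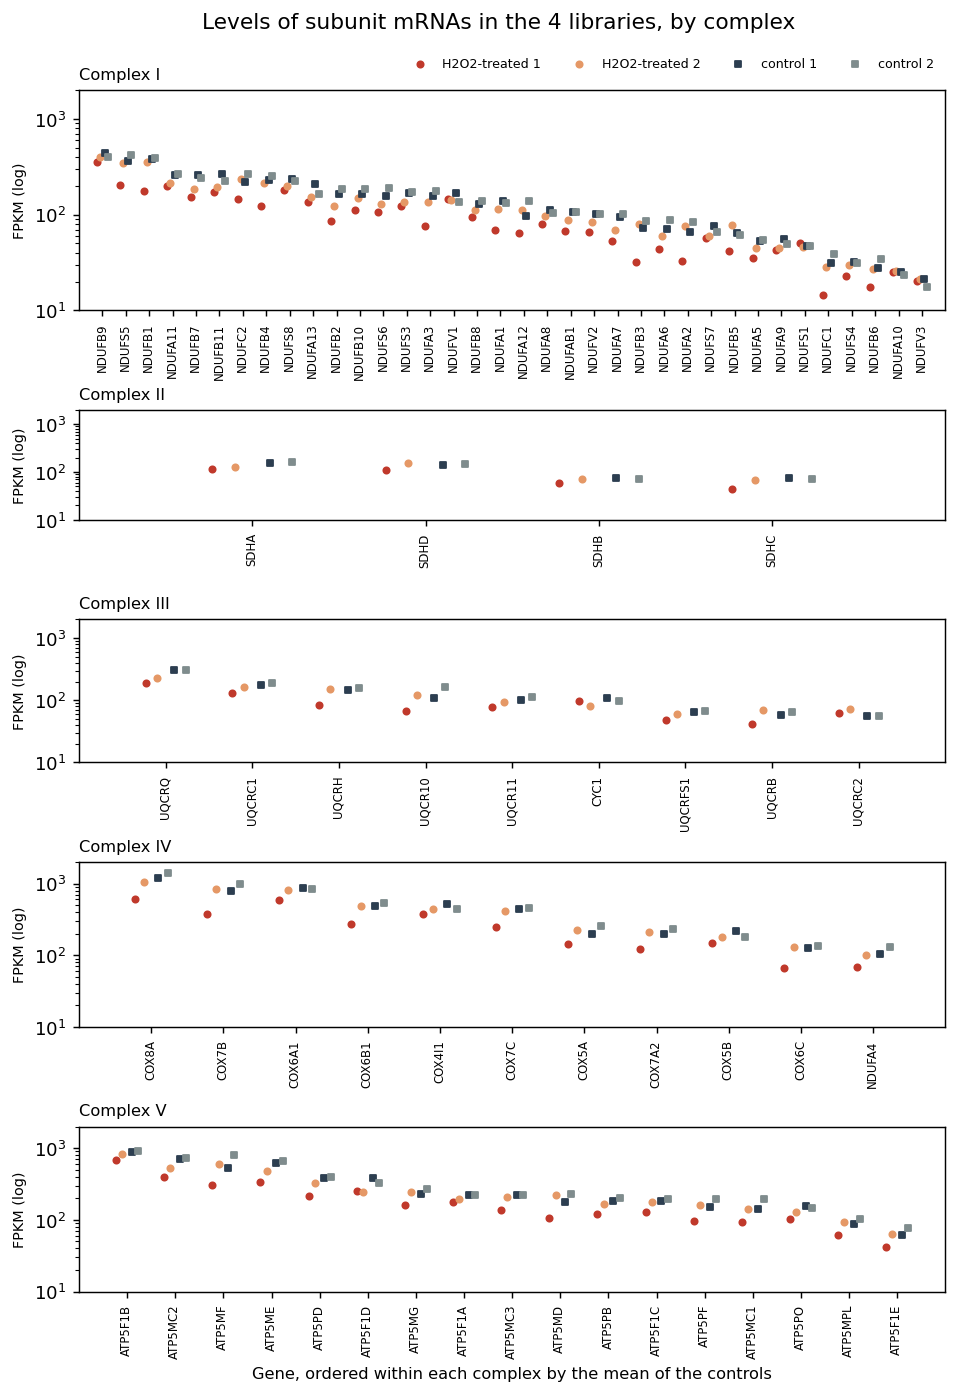
FPKM on a log axis (y) of tested subunit genes in the 4 libraries (circles, H2O2-treated; squares, controls), ordered within each complex by the mean of the controls (x). Complex IV holds the highest level, COX8A, and complex I the widest range, with NDUFB9 at one end and NDUFV3 at the other.

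Complex I, the NADH dehydrogenase, had 26 of its 37 subunit mRNAs lower in both treated libraries than in both controls, 34 with a negative log2 change, and 7 lower at an unadjusted limma p under 0.05. Over all genes these shares were 24.0%, 54.3% and 4.91%. Among short, abundant mRNAs of other genes, described below, 52.6% lay below both controls and 14.4% were lower at that p. Of these 424 others, 363 had a negative log2 change. Levels of the 37 complex I mRNAs summed to 3479.7 and 4694 FPKM in treated cells, against 5361 and 5478 FPKM in controls. NDUFA7, an accessory subunit of the matrix arm (chromosome 19, 8308768 to 8321396, hg38), had 53.2 and 68.4 FPKM in treated libraries and 95.1 and 102 FPKM in controls. The groups did not overlap, and the log2 change was -0.70 ± 0.19 (SE; limma adjusted p = 0.311). NDUFB2, an accessory subunit of the membrane arm (chromosome 7, 140690777 to 140722790), had 85.1 and 123 FPKM in treated libraries and 165 and 186 FPKM in controls, with a log2 change of -0.77 ± 0.22 (SE; limma adjusted p = 0.334). This was the most negative value of any member. NDUFB7 stood at 152 and 186 FPKM in treated libraries, against 257 and 244 FPKM in controls, and NDUFS6, which sits near the NADH-oxidizing tip, at 108 and 128 FPKM, against 157 and 192 FPKM. Neither gene's groups overlapped, and the log2 changes were -0.57 and -0.56 (limma adjusted p = 0.369 and 0.393). The others under that p were NDUFA6, NDUFA3 and NDUFV2. NDUFA6 had 44.3 and 59.7 FPKM in treated libraries and 70.0 and 88.4 FPKM in controls. NDUFA3 had 75.3 and 135 FPKM in treated libraries and 157 and 176 FPKM in controls.

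**Figure D3:**
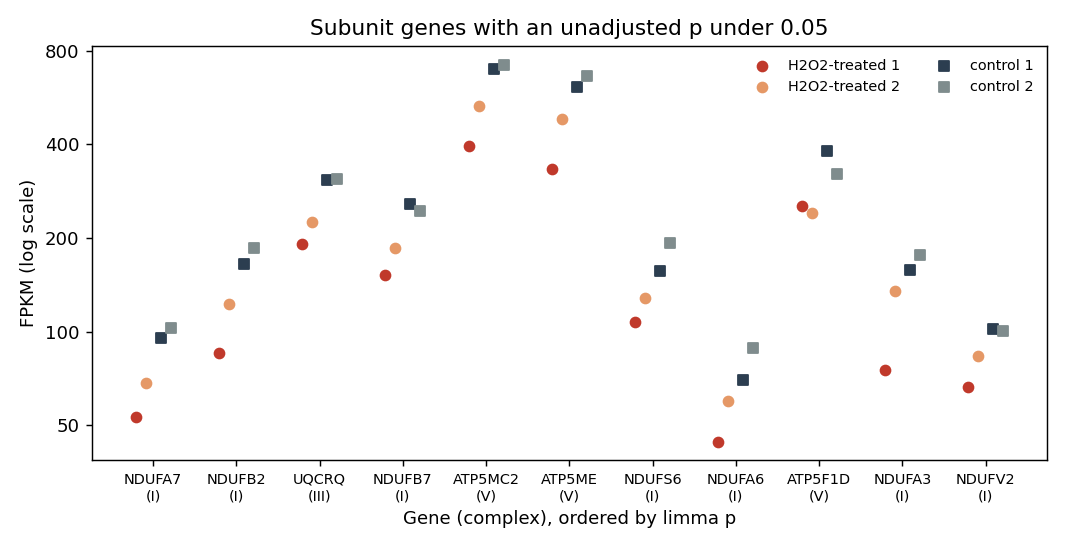
FPKM on a log axis (y) in the 4 libraries for the 11 members with an unadjusted limma p under 0.05 (x, ordered by p, complex in brackets), with H2O2-treated libraries as circles left of the control squares. In every one both circles lie below both squares, and in all but ATP5F1D treated library 1 is the lowest.

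The core subunits of complex I, which carry the flavin and the iron-sulfur clusters, spanned a range of responses. NDUFV1, which holds the FMN that accepts electrons from NADH, had 147 and 143 FPKM in treated libraries and 168 and 134 FPKM in controls. NDUFS1, the largest subunit and a carrier of iron-sulfur clusters, had 50.3 and 46.2 FPKM in treated libraries and 47.4 FPKM in each control. For both, the groups overlapped, with log2 changes of -0.05 ± 0.18 and 0.02 ± 0.16 (SE). NDUFV2, their partner at the NADH-oxidizing tip, had 66.4 and 83.2 FPKM in treated libraries, against 102 and 101 FPKM in controls (log2 change -0.44 ± 0.18; limma adjusted p = 0.445). NDUFS3 and NDUFS8 had log2 changes of -0.38 and -0.27, and NDUFS7 of -0.29. The median log2 change was -0.27 over the 7 core subunits and -0.44 over the 30 accessory ones, whose median transcript lengths were 1039 and 756 nt. That difference was not tested. Positive values, chosen for naming after they were seen, were found only for NDUFS1, NDUFA10 (25.1 and 25.7 FPKM in treated libraries, against 25.4 and 23.7 FPKM in controls) and NDUFV3 (20.3 and 21.3 FPKM, against 21.1 and 17.6 FPKM). In all 3 the groups overlapped. NDUFB9, on average the most abundant complex I mRNA, had 353 and 403 FPKM in treated libraries and 444 and 399 FPKM in controls, and its log2 change of -0.16 turned positive under 3 other scalings.

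Complex II, succinate dehydrogenase, is also an enzyme of the citric acid cycle. All 4 of its mRNAs had a negative log2 change, beside 54.3% of all genes, and 0 had an unadjusted limma p under 0.05. In 3 both treated libraries lay below both controls, beside 24.0% of all genes and 52.6% of other short, abundant mRNAs. SDHA and SDHB, at 2107.5 and 1153 nt, are too long for that class. SDHA, the flavoprotein that oxidizes succinate (chromosome 5, 218241 to 256700), had 118 and 129 FPKM in treated libraries, against 156 and 163 FPKM in controls, with a log2 change of -0.37 ± 0.16 (SE; limma adjusted p = 0.478). SDHB, the iron-sulfur subunit, had 59.9 and 71.9 FPKM in treated libraries and 76.9 and 72.3 FPKM in controls. Treated library 2 thus lay just under the lower control. Of the membrane anchors, SDHC had 43.4 and 68.4 FPKM in treated libraries and 76.2 and 72.8 FPKM in controls. SDHD had 111 and 156 FPKM in treated libraries and 139.8 and 144 FPKM in controls, so its treated values lay on either side of the controls. The log2 changes were -0.18 ± 0.17 for SDHB, -0.44 ± 0.24 for SDHC and -0.11 ± 0.21 for SDHD (SE). The sign of SDHD was positive under rescaling to TPM, quantile, loess, and length and GC correction, and without treated library 1 (0.13), and that of SDHB was at 0.0030 under TPM.

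Complex III, cytochrome bc1, had 5 of 9 mRNAs lower in both treated libraries than in both controls, and 1 higher in both, beside 24.0% and 19.3% of all genes and 52.6% of other short, abundant mRNAs below both. UQCRQ, a small accessory subunit and the most abundant of the 9 (chromosome 5, 132866560 to 132868031), had 191 and 225 FPKM in treated libraries, against 307 and 311 FPKM in controls. Its log2 change was -0.57 ± 0.18 (SE; limma adjusted p = 0.352). UQCRC2, a core protein of the matrix side, was the only tested member with both treated libraries above both controls, at 61.6 and 71.8 FPKM, against 56.8 and 56.5 FPKM, and it did not pass (log2 change 0.23 ± 0.17; limma adjusted p = 0.671). Its partner UQCRC1 had 132 and 166 FPKM in treated libraries and 175 and 191 FPKM in controls. The redox subunits lay lower in both treated libraries. CYC1, cytochrome c1, had 96.2 and 81.7 FPKM in treated libraries and 109.5 and 97.6 FPKM in controls. UQCRFS1, the Rieske iron-sulfur protein, had 48.6 and 59.7 FPKM in treated libraries and 63.7 and 67.0 FPKM in controls. Their log2 changes were -0.22 and -0.27 (limma adjusted p = 0.70 and 0.63). UQCR11 and UQCR10, small subunits, had log2 changes of -0.32 and -0.54 (limma adjusted p = 0.579 and 0.60). UQCRH had 84.8 and 149.8 FPKM in treated libraries and 147 and 156 FPKM in controls, and its copy UQCRHL 34.5 and 59.5 FPKM against 49.9 and 57.6 FPKM. CYCS, the mobile carrier cytochrome c, had 137 and 129 FPKM in treated libraries, against 150.1 and 177 FPKM in controls, without overlap (log2 change -0.30 ± 0.17; limma adjusted p = 0.598).

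Complex IV, cytochrome c oxidase, showed the widest gap between the treated libraries. Of its 17 rows, 11 were tested. All 11 were below both controls in treated library 1, beside 4727 of all 11318 tested genes and 351 of 424 other short, abundant mRNAs. In treated library 2 only 4 were, beside 4911 and 239. So 4 lay below both controls in both, beside 24.0% of all genes and 52.6% of other short, abundant mRNAs. Levels of complex IV mRNAs summed to 3032 and 4932 FPKM in treated cells, against 5119 and 5581 FPKM in controls. These are 56.7% and 92.2% of the control mean. COX8A, a small subunit and the most abundant mRNA of all members (chromosome 11, 63974607 to 63976543), had 612 and 1062 FPKM in treated libraries and 1184 and 1405 FPKM in controls (log2 change -0.68 ± 0.30; limma adjusted p = 0.469). COX7B, another small subunit, had 380.2 and 852 FPKM in treated libraries, against 783 and 971 FPKM in controls, so its second treated library lay between the controls. COX4I1, a regulatory subunit that binds adenine nucleotides, had 380.3 and 443 FPKM in treated libraries and 512 and 436 FPKM in controls. COX6B1 had 277 and 493 FPKM in treated libraries and 492 and 541 FPKM in controls. COX6A1 had 591 and 819 FPKM in treated libraries and 859 and 848 FPKM in controls, and COX7A2 had 121 and 211 FPKM, against 200.04 and 229.7 FPKM. COX7C had 246 and 417 FPKM in treated libraries and 441 and 454 FPKM in controls. NDUFA4, named for complex I but now counted with complex IV, had 67.9 and 101 FPKM in treated libraries and 105 and 131 FPKM in controls. The log2 change of COX7B was -0.61 and those of the 6 genes after it lay between -0.50 and -0.20, and 0 of the 7 had an unadjusted limma p under 0.05. COX5A and COX5B, the other matrix-side subunits, and COX6C had overlapping groups and log2 changes of -0.33, -0.28 and -0.47. COX4I1 turned positive under quantile and loess normalization.

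Forms of complex IV subunits made in other tissues were near or at 0. COX4I2, the form of lung and of low oxygen, COX6A2 and COX7A1, the heart and muscle forms, and COX7B2 were listed at 0 in all 4 libraries. COX8C was listed at 0 in 3 libraries and at 0.135 FPKM in treated library 2. COX6B2, the testis form, had 0.30 and 0.755 FPKM in treated libraries, against 0.0205 and 0.0487 FPKM in controls, too low to be tested. Of the paralogs outside the complex, COX7A2L, a supercomplex factor, had 99.9 and 94.7 FPKM in treated libraries and 125 and 85.0 FPKM in controls, with overlap. NDUFA4L2, a paralog of NDUFA4 known as a hypoxia target, had 4.29 and 2.19 FPKM in treated libraries and 7.66 and 1.14 FPKM in controls. Its controls differed more from each other than its groups did, and its log2 change of -0.07 ± 0.63 (SE) turned positive under 4 alternatives, as that of COX7A2L did under 6. The read-through rows share exons with a subunit gene. NDUFC2-KCTD14 had 96.0 and 157 FPKM in treated libraries and 162 and 172 FPKM in controls, beside 147 and 239 FPKM against 221 and 268 FPKM for NDUFC2, and the split between both rows is uncertain. ATP5MF-PTCD1 had 5.43 and 4.38 FPKM in treated libraries and 5.76 and 4.15 FPKM in controls. ATP5S, named for coupling factor B, had 3.73 and 4.10 FPKM in treated libraries and 5.63 and 4.19 FPKM in controls.

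Complex V, the ATP synthase, had a negative log2 change in 17 of 17 mRNAs, beside 54.3% of all genes. Of the 424 other short, abundant mRNAs, 363 had a negative one. In 11 of the 17 both treated libraries lay below both controls, beside 24.0% of all genes and 52.6% of other short, abundant mRNAs. Levels of the 17 summed to 3407 and 4819 FPKM in treated cells, against 5299 and 5874 FPKM in controls. In the catalytic F1 head, ATP5F1B, the beta subunit and the most abundant of the complex, had 685 and 832 FPKM in treated libraries and 892 and 914 FPKM in controls. ATP5F1A, the alpha subunit, had 176 and 196 FPKM in treated libraries and 223 and 220.0 FPKM in controls. The log2 change of both was -0.26 (limma adjusted p = 0.681 and 0.632), that of ATP5F1B turning to 0.02 under loess. ATP5F1D, the delta subunit of the central stalk, had 254 and 241 FPKM in treated libraries, against 381 and 321 FPKM in controls (log2 change -0.50 ± 0.18; limma adjusted p = 0.413). It was the only one of the 11 members of lowest p in which treated library 1 stood above treated library 2.

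The 3 c ring genes were all lower without overlap, beside 24.0% of all genes and 52.6% of other short, abundant mRNAs. ATP5MC2 (chromosome 12, 53632726 to 53677408), the most abundant of the 3, had 395 and 532 FPKM in treated libraries and 698 and 721 FPKM in controls (log2 change -0.63 ± 0.21; limma adjusted p = 0.388). ATP5MC1 had 92.7 and 140.2 FPKM in treated libraries and 143 and 197 FPKM in controls, and ATP5MC3 had 136 and 209.9 FPKM, against 219 and 224 FPKM. The log2 changes of ATP5MC1 and ATP5MC3 were -0.55 and -0.39 (limma adjusted p = 0.514 and 0.607). Treated library 2 lay within a few FPKM of the lower control for ATP5MC1. Of the membrane subunits, ATP5ME had 333 and 481 FPKM in treated libraries, against 613 and 663 FPKM in controls (log2 change -0.67 ± 0.23; limma adjusted p = 0.393). ATP5MF, ATP5MG, ATP5MD and ATP5MPL had overlapping groups, with log2 changes from -0.59 to -0.30. In the peripheral stalk, which holds the head still, ATP5PD had 214 and 328 FPKM in treated libraries and 377 and 395 FPKM in controls, and the 4 stalk genes had log2 changes from -0.54 to -0.39. Median log2 changes were -0.32 in the head and central stalk, -0.46 in the peripheral stalk, -0.55 in the c ring and -0.41 in the other membrane subunits. ATP5IF1, which blocks the enzyme when it runs backwards, had 198 and 294 FPKM in treated libraries and 306 and 336 FPKM in controls (log2 change -0.41 ± 0.23; limma adjusted p = 0.59).

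Set side by side, the median log2 changes were -0.43 in complex I, -0.27 in complex II, -0.30 in complex III, -0.47 in complex IV and -0.42 in complex V. Differences between complexes were not tested, and their order was not fixed: without treated library 1 the medians were -0.22, -0.09, -0.13, -0.07 and -0.13, and complex IV was then nearest to 0. Rescaling every library to the same total (TPM) shifted the all-gene median by 0.172 (log2), to 0.143, and the members' median to -0.21. Relative to all genes the members' median was -0.37 as deposited, -0.36 after TPM, -0.19 after quantile and -0.17 after loess normalization. Members with a negative log2 change numbered 74 of 86 after TPM, 77 after quantile and 76 after loess normalization.

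**Figure D4:**
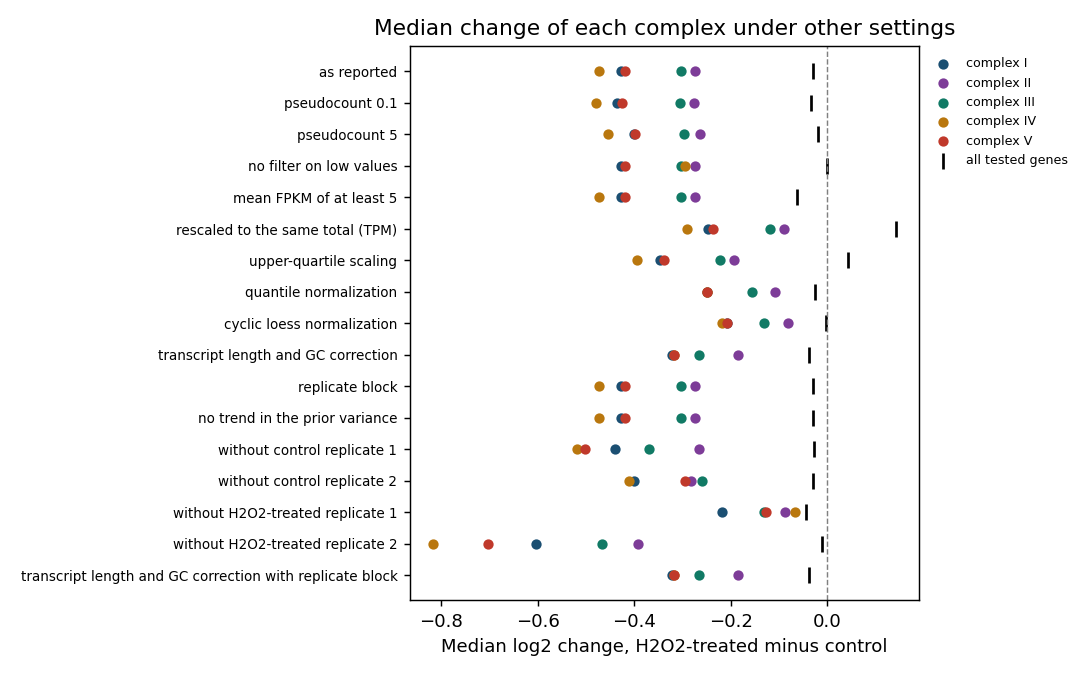
Median log2 change of each complex (coloured points) and of all tested genes (black ticks) on the x axis under each setting (y axis), H2O2-treated minus control. All complex medians are negative, between -0.82 without treated library 2 and -0.07 without treated library 1, both in complex IV.

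Transcript length moved with the result. Subunit mRNAs are short, with a median of 757 nt over the tested members against 2478 nt over all tested genes. Over the 86 members, which share 4 libraries, Spearman's rho between length and the difference from the controls was 0.67 in treated library 1 and -0.0028 in treated library 2, and over the 11226 other genes with a length it was 0.34 and 0.0013. Between both controls (1 minus 2) it was 0.39 over the members and 0.0042 over the others. Other genes with transcripts under 1000 nt had medians of -0.30 in treated library 1 and -0.07 in treated library 2. Members of that length, 57 of them, had -0.77 and -0.14. Abundance moved with it too, so the 424 other genes both under 1000 nt and at 50 FPKM or more on average, a class set after the values were seen, were taken beside the 54 members of that kind. Their median differences were -0.42 in treated library 1 and -0.14 in treated library 2, against -0.75 and -0.14 for the members. Both treated libraries lay below both controls in 52.6% of these other genes and in 61.1% of the members. The log2 change was negative in 363 of the 424 and in all 54 members. At an unadjusted limma p under 0.05, 61 of the 424 (14.4%) and 10 of the 54 were lower. In treated library 2 the members thus had the same median, to 2 decimals, as other short, abundant mRNAs, and the part of length or RNA quality in treated library 1 was not tested. Removing a smooth trend on length and GC content from each library left a members' median of -0.28, against -0.04 over all genes, with 17 members lower at an unadjusted p under 0.05, beside 5.88% of all genes.

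**Figure D5:**
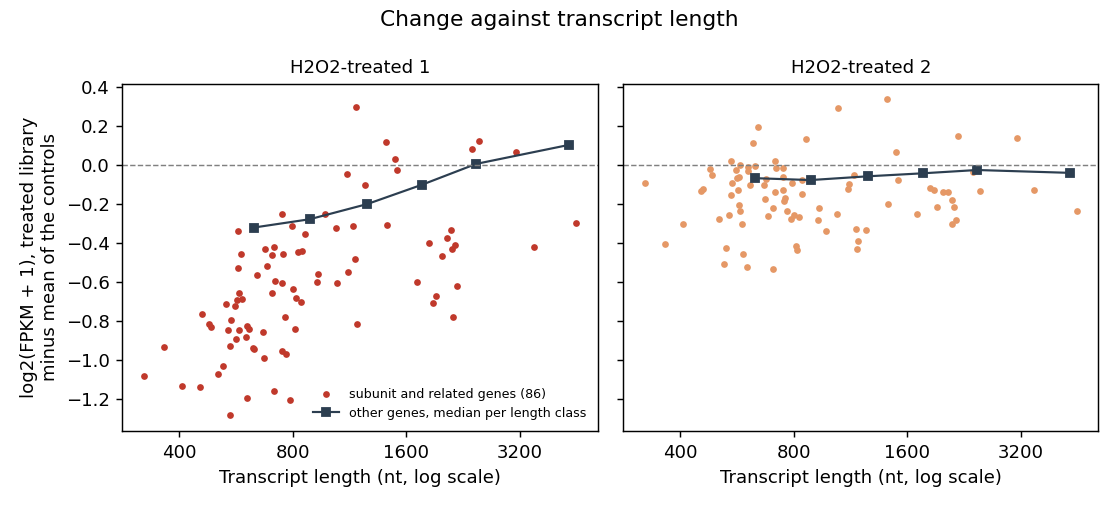
Difference in log2(FPKM + 1) between a treated library and the mean of the controls (y axis) against transcript length on a log axis (x axis, nt), for treated library 1 (left) and 2 (right). Points are the 86 tested members, and squares the medians of the other tested genes in 6 length classes, which run upward with length in library 1 and are flat in library 2.

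Genes that build or serve the complexes also had mostly negative log2 changes, with a median nearer to 0 than that of the subunits. Their transcripts were also longer, with a median of 1503.5 nt against 757 nt over the tested members. The 29 tested members of 1000 nt or more had a median log2 change of -0.26, and the part of length was not tested. Of 92 tested genes in the 8 lists of assembly, coenzyme Q, regulator and carrier genes, members left out, 82 had a negative log2 change, with a median of -0.20. Over all genes 54.3% had a negative one. The counts that follow are of these 92, except that the carrier list also counts the member ATP5IF1. At an unadjusted limma p under 0.05, 11 were lower and 0 higher, beside the 4.91% lower among all genes, and 0 passed after adjustment over all genes. For complex I assembly, 4 of 18 factors were lower at that p, led by NDUFAF8 at 62.9 and 66.8 FPKM in treated libraries, against 100.5 and 116 FPKM in controls (log2 change -0.73 ± 0.17; limma adjusted p = 0.293). NDUFAF3, next by p, had 21.9 and 31.4 FPKM in treated libraries and 38.04 and 40.2 FPKM in controls. For complex IV, 3 of 25 factors were lower, among them COX11, which helps deliver copper, at 22.4 and 26.7 FPKM in treated libraries, against 33.4 and 44.1 FPKM in controls. HIGD2A, another assembly factor, had 111 and 169.5 FPKM in treated libraries and 207 and 227 FPKM in controls. For complex V, 2 of 5 were lower at that p, ATPAF1 (18.5 and 21.6 FPKM, against 27.3 and 28.1 FPKM) and FMC1 (11.4 and 16.8 FPKM, against 20.4 and 21.9 FPKM). For complex III, 1 of 6 was, UQCC3 (20.7 and 18.3 FPKM, against 27.8 and 25.02 FPKM), with BCS1L, which inserts the Rieske protein, next at a log2 change of -0.28. For complex II, 0 of 4 were, and SDHAF4 was among the few on the other side, at 4.80 and 8.55 FPKM in treated libraries and 4.75 and 4.02 FPKM in controls, while SDHAF3 had a log2 change of -0.20.

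Of 13 coenzyme Q genes, COQ2, the prenyltransferase of the pathway, was the 1 lower at that p, at 6.75 and 9.76 FPKM in treated libraries and 12.8 and 12.6 FPKM in controls, and PDSS2 had a log2 change of -0.41. Of the 15 regulators of mitochondrial genes, 13 were tested and 0 were under that p. NRF1, the activator of many subunit genes, had 6.74 and 5.67 FPKM in treated libraries and 8.87 and 7.84 FPKM in controls (log2 change -0.38 ± 0.18; limma adjusted p = 0.511). TFAM, which packages mitochondrial DNA and helps to start its transcription, had 94.1 and 76.1 FPKM in treated libraries and 105 and 101 FPKM in controls. The coactivator gene PPARGC1A was too low to be tested, at 0.146 and 0.172 FPKM in treated libraries and 0.148 and 0.176 FPKM in controls. The ADP/ATP and phosphate carriers, channels, UCP2 and ATP5IF1, 9 in all, had a negative log2 change throughout, with a median of -0.35 and 0 under that p. Those of VDAC1 and VDAC2 were next to 0, at -0.05 and -0.0003. Over all genes 54.3% had a negative log2 change, and 1489 of 1885 genes outside the members at 50 FPKM or more on average did. SLC25A3, the phosphate carrier, had 326 and 347 FPKM in treated libraries and 444 and 425 FPKM in controls, and VDAC3, a channel of the outer membrane, 81.3 and 94.9 FPKM against 105 and 121 FPKM.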

How the data were processed

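Libraries were made from total RNA with a directional kit (labels' protocols). STAR 2.5, Cufflinks 2.2.1 and hg38 are named by the submitters' processing notes, with annotation, strand setting and filters not given in sources used here. What the authors deposited is FPKM, 1 value per gene and library, without counts. Values were taken as log2(FPKM + 1), which understates the change of low genes. Rows with 1 FPKM or more in 2 or more libraries were compared with limma 3.58.1 (R 4.3.3; group as the only term, trended prior variance, two-sided, 2 residual and 6.28 total degrees of freedom), a procedure also tested on simulated data. Benjamini-Hochberg adjustment ran over all 11318 tested genes at 0.05. With 2 against 2 libraries a single value's exact permutation test cannot go below p = 0.333, so none was used.

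Coordinates, coding sequences, and transcript length and GC content (medians over basic protein-coding transcripts) come from GENCODE release 29 on GRCh38, matched by Ensembl identifier. Members and lists were chosen with earlier results of these data known. Named were, per complex, the 4 members of smallest p and the most abundant one, paralog and tissue forms, and 2 genes per list, and other named genes were chosen after their values were seen. The letters of the NRF1 motif were chosen after a longer form had been searched. Other pseudocounts, filters, scalings, a length and GC correction, the replicate number as a block and each library left out were tried as alternatives. Figures used Python 3.11.15 and matplotlib 3.10.9. Single values of 1 member and 1 marker are not reported here.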

Additional observations from a re-analysis of the deposited data

How the results depend on the processing

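The median log2 change of all members and of each complex stayed negative under all 16 alternatives. Each moved by less than the spread between the treated libraries (SD of the median, 0.216 to 0.53), a wide margin that rests on 2 libraries. With 1 treated library left out this was all but fixed in advance, because the margin grows with the gap between these libraries. It shows no stability there: the complex IV median went from -0.47 to -0.07 without treated 1 and still counted as within it. Where 1 library was left out, its group's lone library was assumed to vary like the other group. Genes past the threshold then numbered 127 higher and 13 lower without treated 1, 22 and 9 without treated 2, 30 and 3 without control 1, and 8 and 0 without control 2, against 0 and 0 with all 4 libraries. Members lower at an unadjusted p under 0.05 numbered 5 of 86 without treated 1 (8.33% of all genes), 61 without treated 2 (11.4%), 7 without control 1 (2.02%) and 1 without control 2 (0.875%), against 11 (4.91%), and 0 members passed after adjustment in any of these. That count was 4 after TPM (1.16% of all genes), 5 after upper-quartile scaling (2.59%) and 17 after length and GC correction (5.88%), and 2 after quantile and 2 after loess normalization, a smaller share than the 3.91% and 3.51% of all genes. Genes higher past the threshold numbered 5 among those with a mean of 5 FPKM or more and 32 after TPM, and 0 of them were members.

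The titles give both groups the numbers 1 and 2, and no label says what a number stands for. Deviations of same-numbered libraries correlated (r = 0.451 over all genes, 0.694 over members), but 2 pairs cannot show a pairing. With the number as a replicate block 397 genes were higher and 190 lower past the threshold, among them 5 members, all lower (NDUFA3, NDUFA6, NDUFA7, NDUFB2 and NDUFC1), and 44 members were lower at an unadjusted p under 0.05, beside 9.8% of all genes. With the replicate block and length and GC correction together, added after the data were seen, these were 348, 182, 6 and 39 (beside 11.2% of all genes), the 6 being ATP5MC2, ATP5ME, COX8A, NDUFA3, NDUFA7 and NDUFB2.

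Of 32 tested members named by the rule, 25 kept their sign throughout. SDHD turned to 0.076 after TPM, 0.078 after quantile, 0.11 after loess and 0.015 after length and GC correction, with or without the replicate block, and lay between -0.35 without treated 2 and 0.13 without treated 1. COX7A2L turned to 0.10 after TPM, 0.10 after quantile, 0.11 after loess and 0.017 after length and GC correction, with or without the replicate block, and lay between -0.36 without control 2 and 0.19 without control 1. NDUFB9 turned to 0.030 after TPM, 0.050 after quantile and 0.10 after loess, COX4I1 to 0.076 after quantile and 0.060 after loess, ATP5F1B to 0.020 after loess and SDHB to 0.0030 after TPM. NDUFA4L2 turned to 0.034 at a pseudocount of 0.1 and 0.12 after TPM, and lay between -1.07 without control 2 and 0.94 without control 1, with 0.30 without treated 2. The cause of these turns was not tested. Depth is unknown, so no limit from depth can be given.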
